A study of Mus musculus with 12 samples.

Results

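Wild-type mouse lung after 2 h of ventilation at a high tidal volume was compared with lung after spontaneous breathing, across all genes of the array. The comparison uses 6 of the 12 arrays of the series, chosen by their labels: 3 from ventilated mice and 3 from mice that breathed spontaneously. All were Nrf2+/+ mice of the CD-1/ICR strain, and the other 6 arrays came from Nrf2-/- mice treated the same 2 ways. In the HVT group a ventilator delivered a tidal volume of 30 ml/kg for 2 h. The SpV group breathed spontaneously for 2 h and served as the control. No group was ventilated at a low tidal volume, so effects of the ventilator procedure and of the tidal volume cannot be told apart. Lungs were removed at once, total RNA was extracted with TRIzol, and each sample was hybridised to an Affymetrix Murine Genome 430A array. The labels give the age and sex of no animal, name no anaesthetic, and do not say whether an array held 1 mouse or a pool. They describe wild-type SpV array 1 as whole lung and the other 11 arrays as left lung lobe. Nothing in them says that the replicates were separate animals, so a p-value reflects how far these arrays vary, and that variation may be technical only. The title of the study ties oxidative stress to lung injury by ventilators, and this comparison gives the response of the lung with Nrf2 intact.

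Breaths far larger than normal overstretch the alveolar wall. Stretched epithelial and endothelial cells are known to activate MAP kinases, calcium and cAMP signals within minutes, and these act on transcription factors already present in the cell. The first genes to respond, called immediate early genes, encode short-lived transcription factors such as FOS and EGR1 and the inhibitors that end the signal. Their products then act on genes of inflammation, coagulation, the cytoskeleton and the matrix.

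Signals below are normalized intensities, that is, the deposited values after each array was brought to the same mean and the same distribution. Differences are HVT minus SpV on the scale of log2(signal + 16), with the standard error (SE) of limma, 3 arrays per group. The added 16 pulls the difference of a weak gene towards 0. Signals of different genes cannot be set against each other, since probe sets differ in how well they bind. The brightest probe set stands for a gene. Of 108 further probe sets of described or listed genes whose groups lay apart on the brightest one, 96 had the same direction, 47 lay apart the same way and 1, of Hspa8, the opposite way. Before normalization the trimmed mean signal of the 6 arrays lay between 278 and 438. Pairs of arrays correlated at 0.957 to 0.974 within SpV, 0.940 to 0.966 within HVT and 0.919 to 0.965 between the groups. The ratio of 3' to 5' beta-actin probe signals, a measure of RNA degradation and labelling, was 2.51, 2.08 and 2.36 on the SpV arrays and 1.99, 1.58 and 1.53 on the HVT arrays, so the groups did not overlap in it. Nfe2l2, the gene of NRF2, had signals from 2152 to 3308 on the 6 wild-type arrays and from 36.3 to 61.5 on the 6 knockout arrays. Markers of lung epithelium were well detected: all 10 alveolar type II markers with a probe set passed the filter, with a summed signal of 79514 to 95140 per array.

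Ventilation raised 17 genes and lowered 2 among the 8743 genes tested (limma, adjusted p under 0.05). The called rises were 0.194% of genes and the called falls 0.0229%. The largest rise was in Noct, which encodes nocturnin, an enzyme that removes a phosphate from NADP(H) and whose mRNA cycles over the day. Next came Spry4, which passed the filter on weak signals through the ventilated arrays alone, and Maff, then Fos, both metallothioneins Mt1 and Mt2, and Socs3. The falls were in Alas2 and Hbb-b2, genes of heme and globin in red cells. All 19 genes had groups that did not overlap, which 7.99% of all genes showed towards higher signal and 9.49% towards lower. An unadjusted p under 0.05 was found for 1045 genes. The median difference over all genes was -0.04 and the median SE 0.19. The lead of rises over falls among the called genes was not present among all genes, of which 699 lay apart upwards and 830 downwards. With a difference of at least 2-fold besides, 69 lay apart upwards and 20 downwards.

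**Figure D1:**
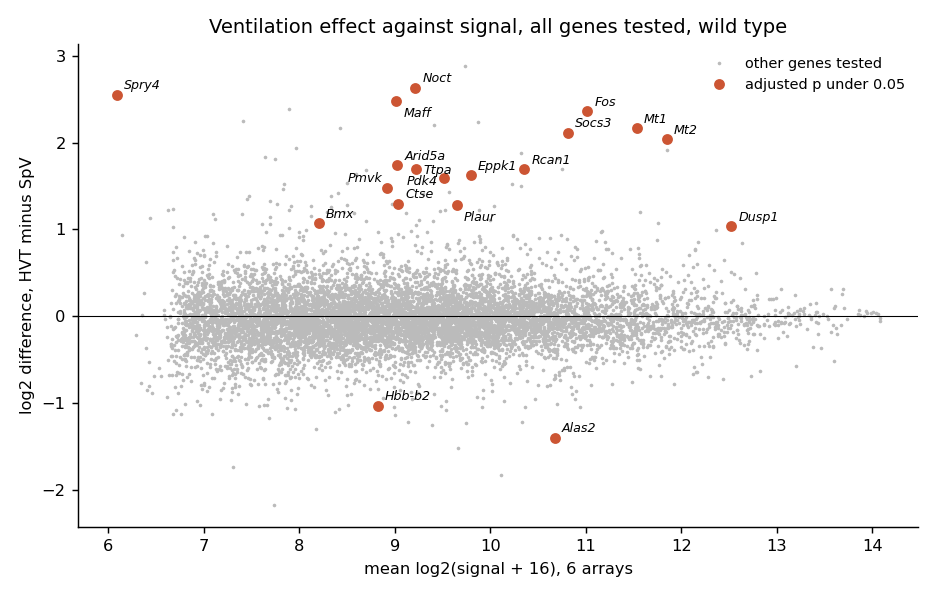
Log2 difference of each of the 8743 genes tested (vertical axis, HVT minus SpV) against its mean log2(signal + 16) over the 6 wild-type arrays (horizontal axis); red points are the 19 genes at an adjusted p under 0.05. The called rises run from 1.04 for Dusp1, a bright gene, to 2.63 for Noct, and both called falls lie below -1.

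Array choice changed how many genes passed. When the knockout arrays entered the fit, which adds degrees of freedom, and knockout SpV array 1 was left out, 39 genes were called higher (0.424%) and 6 lower (0.0652%) of 9199. Of those 45 genes, 17 were among the 19, the exceptions being Pdk4 and Hbb-b2. Knockout SpV array 1 stood apart, with a trimmed mean of 73.4 and an actin ratio of 8.76, and with it included the fit called 7 genes, all among the 19. Genes described below as passing in the 11-array fit are among those 45. Leaving out 1 wild-type array gave 6, 9 and 7 calls when it was SpV array 1, 2 or 3, and 12, 130 and 12 when it was HVT array 1, 2 or 3. Fos, Maff, Mt1, Mt2, Noct and Ttpa passed whichever of the 6 arrays was left out. The other 13 lost the call in at least 1 of these fits, Ctse in all 6 and Spry4 in all 3 that tested it.

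**Figure D2:**
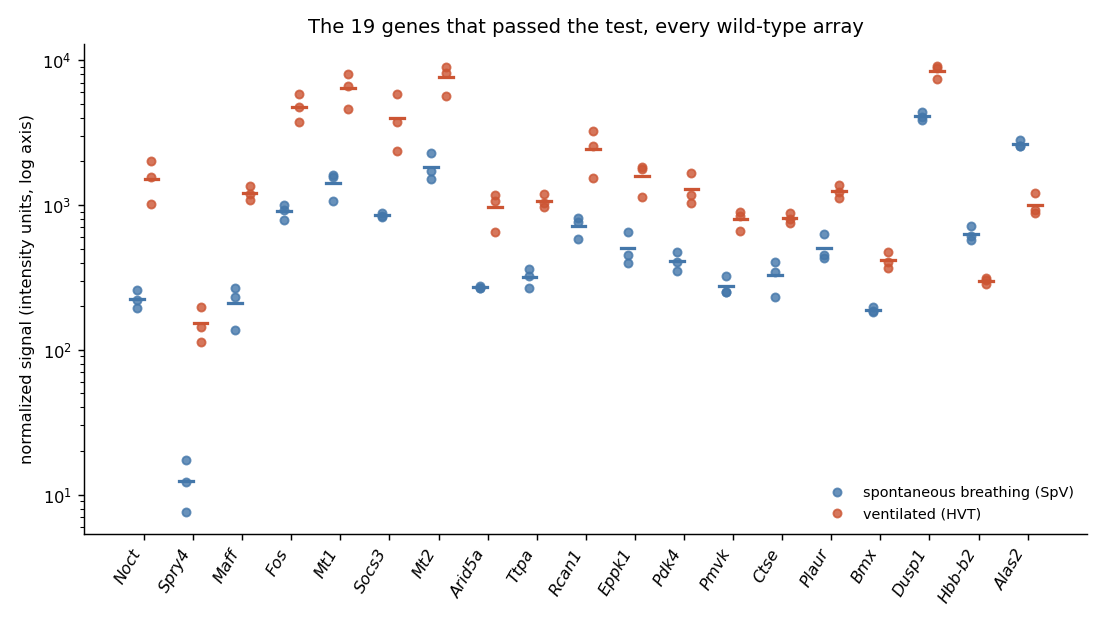
Normalized signal (log axis) of the 19 called genes on every wild-type array, with 3 SpV arrays in blue and 3 HVT arrays in red; bars are group means. The HVT points of the 17 risen genes lie above all SpV points, from Spry4 at 114 to 198 against 7.6 to 17.2, to Dusp1 at 7442 to 9063 against 3859 to 4404.

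Promoters of some risen genes hold motifs known to bind stress- and cAMP-responsive factors. They are shown because 3 of the 13 risen genes with a RefSeq promoter (Dusp1, Maff and Rcan1) hold the full cAMP response element (CRE), TGACGTCA, which 3.46% of the 7058 measured genes with a promoter hold. The AP-1 element TGACTCA, bound by FOS and JUN dimers, was found in Mt2, Plaur and Rcan1, 3 of 13, against 4.97%. The shorter core of the CRE, TGACG, which the full element contains, was found in 6 of 13 against 35.7%, and Fos holds it at 2 places upstream of its start. Metal response element cores, TGCACNC or TGCGCNC, were found in 7 of 13 against 40.5%, Mt1 and Mt2 among them. The STAT motif TTCNNNGAA was found in Maff and Socs3, 2 of 13, against 8.08%. The antioxidant response element TGACNNNGC, which NRF2 binds with a small Maf, was found in 4 of 13 against 16.8%; in Mt2 its match overlaps the AP-1 element. The NF-kB motif was found in 3 of 13 against 12.5%, and the serum response element (CArG box) in 0 against 1.8%. Both strands of 300 bases, 250 before and 50 after each start, were searched, and a gene with several starts counts once. A match describes letters in the window, not binding. Spry4, Ttpa, Eppk1 and Ctse were not matched. Maff has 3 starts in the table, of which the second is shown, and Rcan1 has 2, of which the one with the lower coordinates is shown. The sequences are from RefSeq, build GRCm38.p6, 5' to 3' on the gene's strand, with only bases upstream of the start shown; capitals mark the CRE in Dusp1 and Maff, the CRE and the AP-1 element in Rcan1, the AP-1 element in Plaur, TGACG in Fos, metal response element cores in Mt1, these and the AP-1 element in Mt2, and the STAT motif in Socs3.
Dusp1, chr17:26508553-26508672, minus strand: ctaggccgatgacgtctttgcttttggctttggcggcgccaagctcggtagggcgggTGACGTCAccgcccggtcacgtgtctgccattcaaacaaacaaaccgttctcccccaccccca
Maff, chr15:79347390-79347509, plus strand: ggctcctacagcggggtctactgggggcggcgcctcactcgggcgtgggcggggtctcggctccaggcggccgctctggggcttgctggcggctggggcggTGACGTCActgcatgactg
Rcan1, chr16:92400159-92400278, minus strand: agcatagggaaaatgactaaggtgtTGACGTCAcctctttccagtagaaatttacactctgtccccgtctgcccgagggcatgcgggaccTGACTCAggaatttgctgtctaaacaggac
Plaur, chr7:24462353-24462472, plus strand: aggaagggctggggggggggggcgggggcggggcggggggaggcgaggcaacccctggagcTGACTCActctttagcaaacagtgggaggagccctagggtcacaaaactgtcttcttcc
Fos, chr12:85473740-85473859, plus strand: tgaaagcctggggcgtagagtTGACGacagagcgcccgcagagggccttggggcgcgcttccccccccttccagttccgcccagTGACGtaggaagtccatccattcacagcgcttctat
Mt1, chr8:94178939-94179088, plus strand: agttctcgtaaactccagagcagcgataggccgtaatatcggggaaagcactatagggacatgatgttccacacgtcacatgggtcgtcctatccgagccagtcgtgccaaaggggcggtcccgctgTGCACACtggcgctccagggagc
Mt2, chr8:94172468-94172617, plus strand: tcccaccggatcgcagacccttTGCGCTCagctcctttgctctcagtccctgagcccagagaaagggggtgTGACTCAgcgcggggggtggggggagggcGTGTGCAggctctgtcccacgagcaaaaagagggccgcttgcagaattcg
Socs3, chr11:117969462-117969566, minus strand: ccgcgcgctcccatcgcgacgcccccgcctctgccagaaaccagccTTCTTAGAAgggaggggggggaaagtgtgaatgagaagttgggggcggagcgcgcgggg

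Genes of AP-1, the dimer of FOS and JUN family proteins, and of ATF and small Maf partners were listed together. On the probe set used, 12 of 12 measured members were higher, 2 of them called and 7 with groups apart. Upwards, 7.99% of all genes lay apart. The list median was 0.47 (0.41 to 0.58 without any 1 array) against -0.04 for all genes. Atf2 was lowest at 0.01, and its further probe sets had -0.02 and -0.23 with overlapping groups. Fos signals were 920.2, 996 and 790.5 on the SpV arrays and 5788, 4753 and 3743 on the HVT arrays. All 3 ventilated arrays lay far above the controls, and Fos rose by 2.36 ± 0.18 (5.14-fold, adjusted p = 0.00154). In controls the signals of Maff were 136, 230.1 and 266, against 1359, 1088 and 1194 on the HVT arrays. Maff encodes a small Maf protein, which has no activation domain and pairs with NRF2, with FOS proteins or with itself, and it rose by 2.48 ± 0.23 (adjusted p = 0.00335). Its relatives Mafk and Mafg, at 0.47 ± 0.17 and 0.47 ± 0.18, had groups apart but did not pass. Atf3 had control signals of 334, 212 and 384 and ventilated signals of 3840.1, 494 and 1581. Atf3, a repressor induced by many stresses, thus differed widely among the ventilated arrays, and its difference of 2.21 ± 0.58 did not pass (adjusted p = 0.191). Junb at 1.50 ± 0.28 was likewise apart without passing, while Jun at 0.44 ± 0.22 and Jund at 0.44 ± 0.16 had overlapping groups. Fosb, at 2.25 ± 0.47, passed the filter through the ventilated arrays alone. Its groups therefore had to lie apart on the scaled signals that the filter used. Fosl1 stayed under the filter, with 42.8, 16, 7.8, 415, 15 and 262 in the order SpV arrays 1 to 3, then HVT arrays 1 to 3.

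Other immediate early genes were higher too, with a wide range among the ventilated arrays. Of the list of EGR, NR4A, IER and related genes, 19 of 19 measured members were higher at a median of 0.94, 0 were called by limma (14 had an unadjusted p under 0.05), and 12 had groups apart. Over all genes, 1045 of 8743 had such a p and 7.99% lay apart upwards. The signal of Egr1 was 2465, 1304 and 2069 in controls and 13163, 4024 and 6831 after ventilation. Egr1, a zinc finger factor induced through serum response factor, had a difference of 1.91 ± 0.38 (adjusted p = 0.0948), with HVT array 1 the highest and HVT array 2 the lowest of the ventilated arrays. Plk3 had 128, 101 and 109 in spontaneously breathing lungs and 725, 262 and 553 in ventilated lungs. Plk3, a stress-responsive kinase, had 1.93 ± 0.32 (adjusted p = 0.0593) and passed in the 11-array fit, as did the orphan nuclear receptor Nr4a2 at 1.53 ± 0.27, whose other probe set had 0.89 with overlapping groups. Its relative Nr4a1 had 1.82 ± 0.43 and Srf, the serum response factor, 1.23 ± 0.26, both with groups apart and neither passing; the other Srf probe set had 0.50 with overlapping groups. Myc at 1.35 ± 0.39 and Gadd45a at 1.18 ± 0.45 had overlapping groups, with HVT array 2 inside the control range.

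Dusp1 and Rcan1, inhibitors that end kinase and calcium signals, rose as well. Among MAP kinase phosphatases and Sprouty proteins, 12 of 15 measured members were higher, 2 were called (Dusp1 and Spry4) and 7 lay apart, at a median of 0.54, which was as low as 0.24 when HVT array 3 was left out, with 0.29 for HVT array 1 and 0.31 for SpV array 2. Spry4 and Dusp8 are among the 7 and passed the filter through the ventilated arrays alone. Both therefore had to differ on the scaled signals that the filter used. For Dusp1 the SpV signals were 3859, 4404 and 4052 and the HVT signals 9063, 8877 and 7442. Dusp1, the phosphatase that inactivates p38 and JNK, was steady within each group and rose by 1.04 ± 0.12 (2.05-fold, adjusted p = 0.00722). Spry4 signals were 12.2, 17.2 and 7.6 on the SpV arrays and 198, 114 and 144 on the HVT arrays. Spry4, a feedback inhibitor of receptor tyrosine kinase signals, was weak in controls and is 1 of 15 genes of the 8743 on that side of the filter. Its 2.55 ± 0.34 (adjusted p = 0.0173) is a description only. Dusp16, a JNK phosphatase, had 0.94 ± 0.16 and passed in the 11-array fit. Errfi1, which inhibits the EGF receptor, had 0.85 ± 0.20 with groups apart and no call, and Dusp8 had 1.18 ± 0.25. In controls the signals of Rcan1 were 582, 766 and 812, against 3250.4, 1533 and 2569 on the HVT arrays. Rcan1 encodes an inhibitor of the calcium-dependent phosphatase calcineurin and is itself induced by calcineurin, and it rose by 1.69 ± 0.26 (adjusted p = 0.0415); a further Rcan1 probe set had 1.21 with groups apart.

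Genes of the IL-6 and STAT3 response were mostly higher: 14 of 16 measured members, 2 called and 6 apart, at a median of 0.38. Of all genes, 7.99% lay apart upwards. Socs3 had control signals of 883, 829 and 835 and ventilated signals of 5834, 2372 and 3736. Socs3, which blocks signalling from the IL-6 receptor chain gp130, rose by 2.11 ± 0.27 (4.33-fold, adjusted p = 0.0136), with tight controls and a range of more than 2-fold among the ventilated arrays. Its 2 further probe sets had 2.15 and 1.93, also with groups apart. The signal of Bmx was 196, 184 and 182 in controls and 406, 366 and 470 after ventilation. Bmx, a tyrosine kinase of the TEC family found in endothelium, rose by 1.07 ± 0.17 (adjusted p = 0.0445). Stat3 itself had 0.36 ± 0.12 and the oncostatin M receptor Osmr 0.55 ± 0.14, both apart and neither passing. Arid5a had 267, 274 and 266 in spontaneously breathing lungs and 1168, 655 and 1068 in ventilated lungs. Arid5a encodes an RNA-binding protein that stabilises Il6 mRNA, and it rose by 1.74 ± 0.22 (adjusted p = 0.0124). Zfp36, whose protein speeds the decay of cytokine mRNAs, had 1.20 ± 0.25 with groups apart. The list of cytokine mRNA regulators as a whole had 6 of 8 measured members higher, with a median of 0.18 (0.28 without HVT array 3).

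Cytokines themselves were mostly too weak to test. Of the acute cytokines and chemokines, 13 with a probe set stayed under the filter and 3 were measured, of which 2 were higher and 0 had an unadjusted p under 0.05 in limma, at a median of 0.10 (-0.01 without SpV array 3). Il6 had signals of 33.4, 13.6, 22.1, 449, 61.6 and 247 in the order SpV arrays 1 to 3, then HVT arrays 1 to 3. Its groups did not overlap, yet only HVT arrays 1 and 3 reached a signal of 100, and without a filter its difference of 2.47 ± 0.58 did not pass (adjusted p = 0.213). Cxcl1, a neutrophil chemoattractant, had 42.6, 47.2, 61.5, 249.9, 94.9 and 288 in the same order, a difference of 1.66 ± 0.38 (adjusted p = 0.212). For Tnf the values were 108, 18.6, 14.1, 19.9, 10.6 and 17.8, and for Cxcl2 51.2, 38.9, 26.6, 56.3, 42.6 and 59.5, so neither separated the groups. For Il1b the SpV signals were 224, 324 and 150.3 and the HVT signals 139, 524 and 257. Il1b had 0.25 ± 0.42 with overlapping groups. NF-kB feedback and adhesion genes had 10 of 13 measured members higher and 0 called. By limma, 6 had an unadjusted p under 0.05, against 1045 of 8743 genes. The median of this list was 0.16 (0.08 without HVT array 1). Groups lay apart upwards for 4 members and downwards for 1, Traf1, against 7.99% and 9.49% of all genes. Of the 4, Tnfaip3 passed the filter through the ventilated arrays alone. Nfkbiz, an inducible nuclear partner of NF-kB, had 1.09 ± 0.22 and passed in the 11-array fit.

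In the prostaglandin and coagulation lists a few genes had large differences while the medians lay near that of all genes. Ptgs2 signals were 127, 682 and 294 on the SpV arrays and 2747, 1246 and 3549 on the HVT arrays. Ptgs2, the inducible cyclooxygenase, had the largest difference of any gene described here, 2.88 ± 0.53 (adjusted p = 0.0763), and passed in the 11-array fit; its controls ranged over more than 5-fold. The other Ptgs2 probe set had 0.93 with overlapping groups. The prostaglandin list had 4 of 9 measured members higher at a median of -0.09 (0.08 without HVT array 1). In controls the signals of Plaur were 433, 452 and 629.9, against 1225, 1125 and 1367 on the HVT arrays. Plaur, the receptor that gathers urokinase on the cell surface, rose by 1.28 ± 0.18 (adjusted p = 0.0249). F3 had control signals of 698, 793 and 493 and ventilated signals of 3688, 1443 and 2703. F3, tissue factor, which starts coagulation, had 1.88 ± 0.31 and Thbs1, thrombospondin 1, 2.24 ± 0.36 (adjusted p = 0.0593 and 0.0508); both passed in the 11-array fit. The coagulation and fibrinolysis list had 5 of 13 measured members higher, 1 called and 4 apart upwards, against 7.99% of all genes. Its median was -0.07 (0.10 without HVT array 1). Among YAP and stretch targets, Ccn1 at 1.70 ± 0.31 and Ccn2 at 0.78 ± 0.17, matricellular proteins induced by stretch, were apart without passing, and 6 of the 10 measured members were lower.

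Metallothioneins, small proteins that bind zinc and copper and react with oxidants, rose strongly. The signal of Mt1 was 1616, 1548 and 1060.2 in controls and 8047, 4601 and 6659.8 after ventilation. Mt2 had 2270.3, 1719 and 1504 in spontaneously breathing lungs and 9027, 5642 and 8146 in ventilated lungs. Mt1 rose by 2.17 ± 0.23 (4.49-fold, adjusted p = 0.00456) and Mt2 by 2.04 ± 0.20 (4.11-fold, adjusted p = 0.0038), and each had all 3 ventilated arrays above all controls. A further Mt1 probe set had 1.73. Of the 9 metallothionein and zinc transporter genes measured, 7 were higher, at a median of 0.21 (0.12 without HVT array 1). The importers Slc39a14, at 0.77 ± 0.25, and Slc39a8, at -0.69 ± 0.18, lay apart in opposite directions, but their other probe sets, at -0.04 and -0.17, overlapped. NRF2 target genes had 24 of 29 measured members higher and 5 lower, 0 called (8 at an unadjusted limma p under 0.05) and 7 apart, at a median of 0.21 (0.14 without HVT array 3). Among all genes, 1045 of 8743 had such a p and 7.99% lay apart upwards. For Gclc the SpV signals were 4134, 3511 and 2741 and the HVT signals 6698, 5660 and 6252. Gclc, the catalytic subunit of the enzyme that limits glutathione synthesis, had 0.86 ± 0.16 (adjusted p = 0.0751), and Srxn1, which reactivates oxidised peroxiredoxins, 1.19 ± 0.20 (adjusted p = 0.0593). Both passed in the 11-array fit. Txnrd1 had 0.90 ± 0.20 and Hmox1 0.96 ± 0.25, apart and not called (a further Txnrd1 probe set had 0.29 with overlapping groups), while Nqo1, often used as a marker of NRF2 activity, had 0.06 ± 0.19 with overlapping groups.

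Metabolic genes among the 17 had separate roles. Noct signals were 258, 194 and 219.6 on the SpV arrays and 1995, 1014 and 1551 on the HVT arrays. Noct rose by 2.63 ± 0.24 (6.20-fold, adjusted p = 0.00335). Of the 14 clock genes measured, 8 were higher and 3 lay apart upwards, against 7.99% of all genes. Per2 had 1.21 ± 0.23 and Per1 0.57 ± 0.15, without a call. The median of the clock list was 0.30, but 0.09 without HVT array 3 and -0.12 in the fit with the actin covariate. In controls the signals of Ttpa were 269, 363 and 324, against 973, 1189 and 1037 on the HVT arrays. Ttpa encodes the transfer protein that carries vitamin E, and it rose by 1.70 ± 0.17 (adjusted p = 0.0038), with the highest value on HVT array 2. Pdk4 had control signals of 406, 470.5 and 351 and ventilated signals of 1036, 1163 and 1649.7. Pdk4, the kinase that shuts pyruvate dehydrogenase and spares glucose, rose by 1.59 ± 0.20 (adjusted p = 0.0136). It stands on the glucocorticoid list together with Dusp1, of which 11 of 17 measured members were higher at a median of 0.19. The direction of that median was not stable: it was -0.11 without HVT array 3, -0.03 without SpV array 3 and -0.45 in the fit with the actin covariate. The signal of Pmvk was 250.2, 325 and 252 in controls and 898, 842 and 657 after ventilation. Pmvk, phosphomevalonate kinase of the cholesterol pathway, rose by 1.48 ± 0.18 (adjusted p = 0.0124). Ctse had 403, 344 and 233 in spontaneously breathing lungs and 746, 876 and 805 in ventilated lungs. Ctse, the aspartic protease cathepsin E, rose by 1.30 ± 0.21 (adjusted p = 0.0471) on this probe set, but its other probe set had -0.15 with overlapping groups, so the call holds for 1 of 2 probe sets. That second probe set replaces the first as the brighter one when HVT array 1, 2 or 3 is left out, and Ctse then had -0.17, -0.20 and -0.06.

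Epithelial cytoskeleton genes were mostly higher, while other barrier lists had medians closer to that of all genes. For Eppk1 the SpV signals were 399, 652 and 452 and the HVT signals 1839.5, 1130.5 and 1779. Eppk1, epiplakin, which binds and bundles keratin filaments, rose by 1.63 ± 0.24 (adjusted p = 0.0325). Of the 12 keratins and cytolinkers measured, 10 were higher, at a median of 0.28, and 6 lay apart upwards, against 7.99% of all genes. Krt8 signals were 3707, 4330.5 and 3221 on the SpV arrays and 8967, 5378 and 8485 on the HVT arrays. Krt8 and its partner Krt18, the keratin pair of simple epithelia, had 0.99 ± 0.20 and 1.08 ± 0.32, and Krt19 0.85 ± 0.22, all apart and none called. In the tight junction list 8 of 15 measured members were higher at a median of 0.06 (-0.02 without HVT array 1); Cldn4, which seals alveolar epithelium, had 1.68 ± 0.56 with overlapping groups and HVT array 2 at 251 between the controls. Alveolar ion and water transport genes had 8 of 11 higher at a median of 0.11, and the sodium pump subunit Atp1b1 had 0.49 ± 0.14 with groups apart, though its 4 further probe sets ran from -0.15 to 0.41.

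The remaining stress lists differed in direction and size, with 0 genes called by limma in the heat shock, ER stress, p53, interferon and cell division lists. In that order, 6 of 20, 4 of 20, 8 of 14, 3 of 12 and 1 of 12 had an unadjusted p under 0.05. Among all genes, 1045 of 8743 did. Heat shock chaperones had 13 of 20 measured members lower at a median of -0.21, 5 of them apart, against 9.49% of all genes. Hsph1 had -0.95 ± 0.27 and Hspa8 -0.57 ± 0.17. A weak Hspa8 probe set had 0.52 and lay apart the opposite way, and 2 others had -0.24 and -0.72. The inducible Hspa1b overlapped between groups, with signals of 1213, 1254 and 4852 on SpV arrays and 1938, 584 and 494 on HVT arrays, highest on SpV array 3. Without SpV array 3 the median of this list was -0.08. The ER stress list had a median of 0.02 (-0.01 without HVT array 2, -0.15 in the fit with the actin covariate), with Atf4, the translation-controlled activator of amino acid genes, at 0.68 ± 0.13 and called in the 11-array fit. On the p53 list 9 of 14 measured members were higher at a median of 0.52, which was 0.29 without SpV array 3 and 0.06 in the fit with the actin covariate. Its members lay apart both ways: Mdm2, Btg2, Trp53inp1, Perp and Plk2 upwards, and Ccng1, Phlda3 and Ei24 downwards. Further probe sets of Btg2 (0.20), Trp53inp1 (0.80) and Ccng1 (-0.47 and -0.03) had overlapping groups, and that of Mdm2 (0.61) lay apart. Mdm2, the ligase that degrades p53, had 0.90 ± 0.18 and passed in the 11-array fit, while the p53 target Phlda3 had -0.40 ± 0.15 and Ccng1, cyclin G1, -0.31 ± 0.16. Interferon-stimulated genes had 10 of 12 measured members lower at a median of -0.38 (-0.24 without SpV array 2), with Rsad2 at -1.25 ± 0.27 and Iigp1 at -0.57 ± 0.17 apart and not called. For cell division genes the median was -0.06 (0.04 without SpV array 3), and 8 of 12 were lower. Among them, Aurka passed the filter through the SpV arrays alone, so it had to be lower on the scaled signals.

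**Figure D3:**
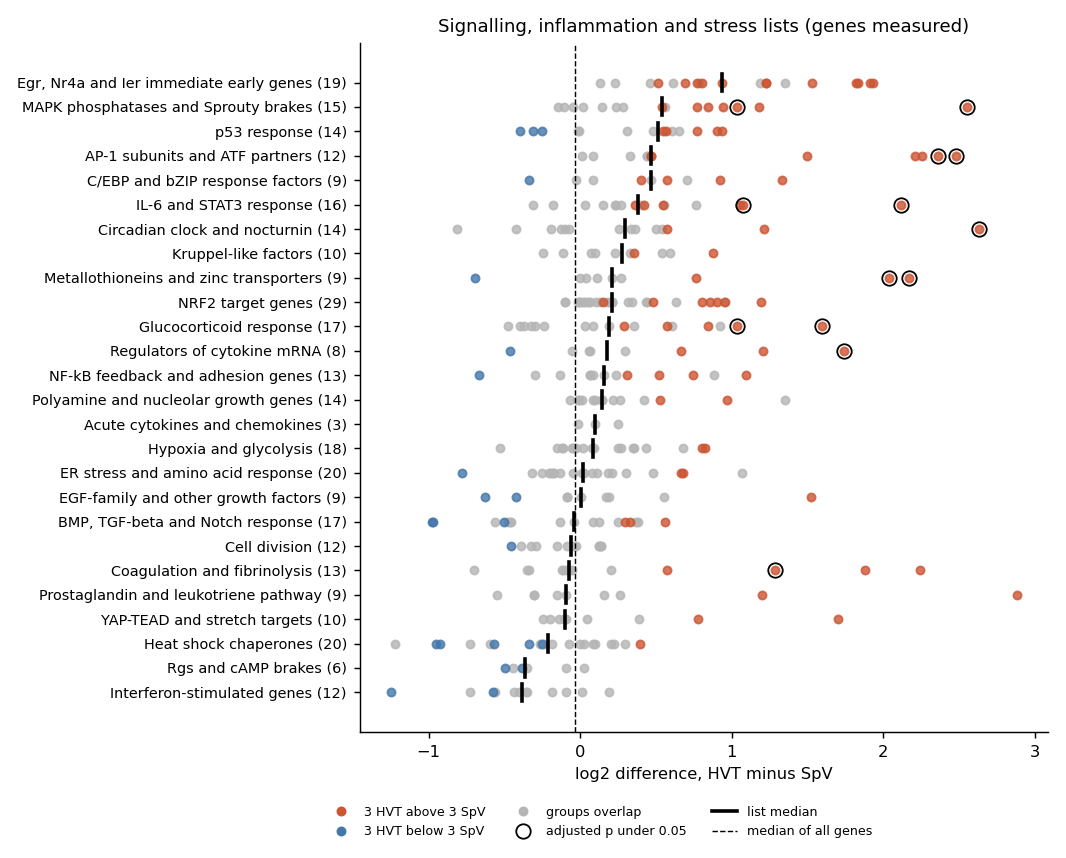
Log2 differences (HVT minus SpV) of the measured members of the signalling, inflammation and stress lists, 1 point per gene, with lists ordered by their median (thick bar) and the number of measured genes in brackets. Red and blue points have groups that do not overlap, rings mark called genes, and the dashed line is the median of all genes at -0.04; the immediate early list has the highest median at 0.94 and the interferon list the lowest at -0.38.

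Both genes that fell belong to red cells. In controls the signals of Alas2 were 2567, 2534 and 2816, against 919, 1209 and 872 on the HVT arrays. Alas2, the erythroid form of the first enzyme of heme synthesis, fell by 1.40 ± 0.16 (adjusted p = 0.00722), and the groups lay far apart. Hbb-b2 had control signals of 607, 576 and 714 and ventilated signals of 304, 315 and 282. Hbb-b2, a beta globin, fell by 1.03 ± 0.16 (adjusted p = 0.04) on a probe set that can also bind related globins; its other probe set had 0.44 with overlapping groups. In bulk RNA, fewer cells of a type and less RNA per cell cannot be told apart. The signal of Slc4a1 was 259, 199 and 387 in controls and 54.4, 95.9 and 65.9 after ventilation. Slc4a1, the anion exchanger of red cell membranes, had -1.74 ± 0.29. It passed the filter through the SpV arrays alone, 1 of 27 such genes. It therefore had to differ on the scaled signals that the filter used, and is a description only. Fech, which inserts iron into heme, had -0.65 ± 0.15 and passed in the 11-array fit; its further probe sets had -0.77 with groups apart and 0.20 with overlapping groups. The summed signal of the 3 red cell markers measured, Alas2, Slc4a1 and Bpgm, was 3400 to 4063 on SpV arrays and 1246 to 1723 on HVT arrays. The alpha globin Hba-a1 and Epb42 stayed under the filter. SpV array 1, the whole-lung array, lay between both left-lobe controls for Slc4a1 and Alas2.

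Genes of the vascular and matrix lists were mostly lower, and 0 were called by limma in the 6-array fit. An unadjusted limma p under 0.05 was found for 7 of 16 endothelial markers and 7 of 17 collagens, against 1045 of 8743 genes. Gja4 had 1637, 1347 and 983 in spontaneously breathing lungs and 533, 678 and 448 in ventilated lungs. Gja4, connexin 37 of arterial endothelium, had -1.22 ± 0.22 (adjusted p = 0.0721) and passed in the 11-array fit. For Gas1 the SpV signals were 1268, 851 and 1108 and the HVT signals 388, 632 and 486. Gas1, a membrane protein that binds hedgehog ligands, had -1.08 ± 0.22, and the lysosomal membrane protein Laptm4a -0.66 ± 0.15; both passed there too. The other Gas1 probe set had -0.08, with overlapping signals of 498, 749.6 and 809 against 438, 763 and 757. Of 16 endothelial markers measured, 15 were lower, at a median of -0.42. Groups lay apart downwards for 2 of them, against 9.49% of all genes. Cdh5 at -0.76 ± 0.27 and Ramp2 at -0.72 ± 0.24 had overlapping groups, with HVT array 2 among the controls. The other Cdh5 probe set had -0.14. The median of this list was -0.66 without HVT array 2 and -0.28 in the least negative of the fits that left out 1 array. Vasoactive genes had 14 of 16 lower at -0.34 (-0.54 without HVT array 2), with Edn1, endothelin 1, at -0.86 ± 0.26. In the BMP and Notch list, whose median was -0.04, Hey1 had -0.97 ± 0.17 and Smad6 -0.98 ± 0.22, feedback genes of Notch and BMP signals with groups apart.

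Collagens had 14 of 17 measured members lower and 4 apart, at a median of -0.36, and elastic fibre and matrix glycoproteins 16 of 18 lower and 4 apart, at -0.36. Of all genes, 9.49% lay apart downwards. Col1a2 signals were 5522, 5495 and 6183 on the SpV arrays and 3686, 4371 and 3045 on the HVT arrays. Col1a2 had -0.64 ± 0.15, Col3a1 -0.63 ± 0.17 and Col6a3 -0.67 ± 0.19, none of them called. In controls the signals of Mfap4 were 1571, 2899 and 1953, against 133, 1839 and 716 on the HVT arrays. Mfap4 had -1.83 ± 0.72, the most negative value of these 2 lists, with HVT array 1 far below the others and overlapping groups. Of the matrix proteases and inhibitors, 6 of 13 were higher; Timp3, an inhibitor bound to the matrix, had 0.65 ± 0.14, and Adam17, the protease that sheds TNF and EGF receptor ligands, -0.70 ± 0.17, with groups apart in opposite directions.

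Marker lists of other cell types had no called gene apart from Alas2. Fibroblast and mesothelial markers had 9 of 10 lower at a median of -0.50. T and NK cell markers had 6 of 7 lower at -0.47, but -0.97 without HVT array 2 and -0.79 without SpV array 2. Klrk1 on that list passed the filter through the ventilated arrays alone, so it had to be higher on the scaled signals. Alveolar type I markers had 6 of 7 lower at -0.31, but -0.07 without SpV array 2 and -0.13 without HVT array 3. In type II markers 9 of 10 were lower at -0.16 (-0.07 without HVT array 1). B cell markers had 7 of 7 lower at -0.28, but -0.09 without HVT array 2, and macrophage markers 7 of 7 lower at -0.11 (-0.20 without SpV array 1). Of the macrophage markers, Ccr2 passed the filter through the SpV arrays alone, so it had to be lower on the scaled signals. Its other probe set had 0.12 with overlapping groups. Neutrophil markers had 6 of 9 lower at -0.25, but -0.05 without SpV array 2 and -0.07 without HVT array 3, and their summed signal was 6229 to 8699 on SpV arrays and 5188 to 9489 on HVT arrays, so the groups overlapped. Smooth muscle markers had 6 of 11 higher at 0.17 (0.03 without SpV array 3), with Cnn1, calponin, at 0.86 ± 0.16 (adjusted p = 0.0721). Heart muscle markers, 13 of 13 measured, had a summed signal of 30945 to 44327 on SpV arrays and 29008 to 48132 on HVT arrays, and none lay apart. Airway markers differed between single arrays: Reg3g had signals of 544, 579.5 and 264 on SpV arrays and 20.1, 33.4 and 557 on HVT arrays, low on HVT arrays 1 and 2 alone. The part that cell make-up played in the differences above was not tested.

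**Figure D4:**
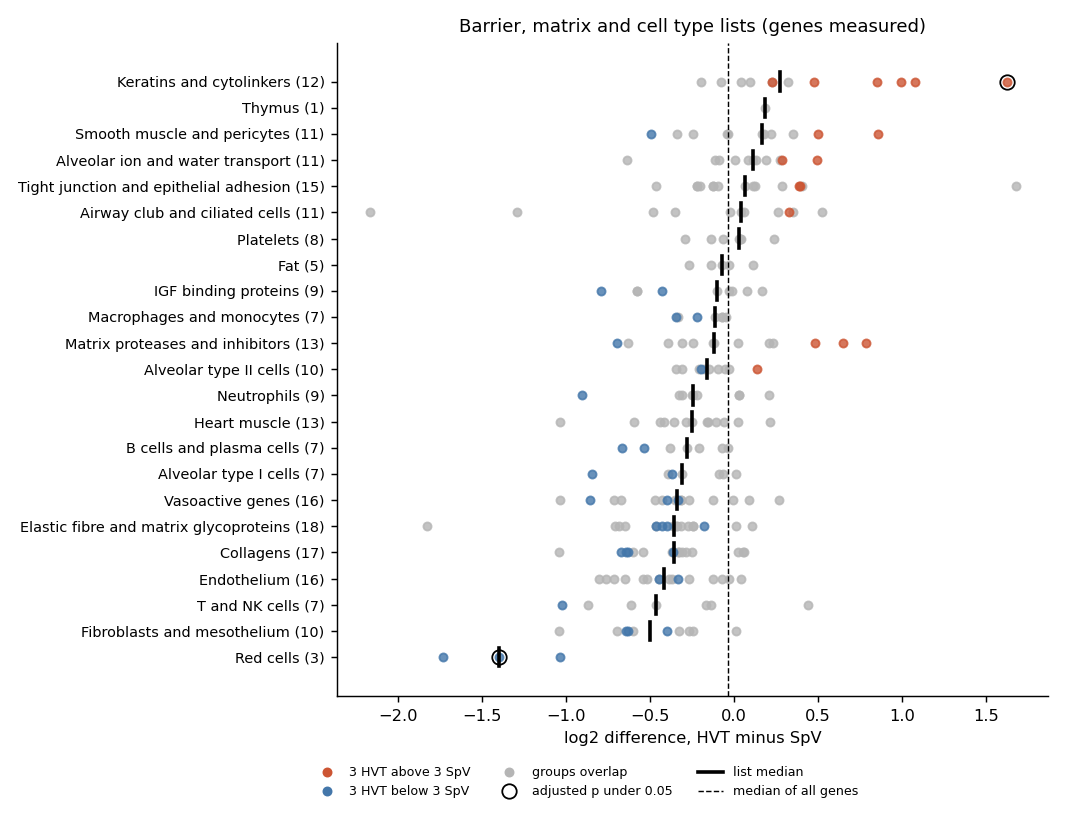
Log2 differences (HVT minus SpV) of the measured members of the barrier, matrix and cell type marker lists, drawn as in the plot of the response lists, with the number of measured genes in brackets. Keratins and cytolinkers have the highest median at 0.28, and fibroblast markers at -0.50 and red cell markers at -1.40 the lowest.

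The size of the differences varied among the ventilated arrays. For the 17 risen genes, the median difference from the mean of the SpV arrays was 2.05 on HVT array 1, 1.48 on HVT array 2 and 1.93 on HVT array 3. HVT array 2 was the lowest of the 3 for 11 of the 17 genes, with Fos, Ttpa, Pdk4, Pmvk, Ctse and Dusp1 as the exceptions. Across the 699 genes whose ventilated arrays all lay above the controls, it was the lowest for 55.1%, and across the 830 lower genes it was the closest to the controls for 48.4%. On HVT arrays 1 to 3 the trimmed mean was 278, 438 and 437 and the actin ratio 1.99, 1.58 and 1.53, and their part in this was not tested. The labels give no ventilator or animal record by which to compare the 3.

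**Figure D5:**
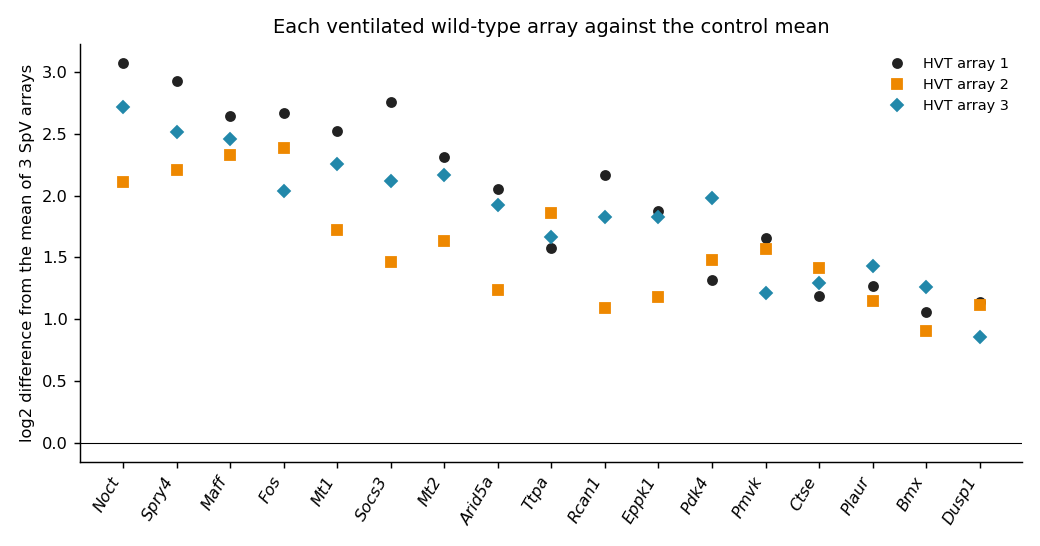
Difference of each HVT array from the mean of the 3 SpV arrays on the log2(signal + 16) scale (vertical axis) for the 17 called rises, ordered by their mean; circles, squares and diamonds are HVT arrays 1, 2 and 3. HVT array 2 lies lowest for 11 genes, and the spread is wide for Socs3, from 1.47 to 2.76, and narrow for Maff, from 2.33 to 2.65.

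Since the actin ratio differed between the groups, the fit was repeated with it as a covariate. The groups did not overlap in this ratio, so the fit cannot separate its part from that of ventilation, and its values are descriptions. In that fit 11 genes were called, 4 of them among the 19: Noct at 3.36, Socs3 at 2.95, Fos at 2.70 and Mt2 at 2.51. The other 15 kept their direction, with differences such as 2.41 for Maff (adjusted p = 0.075), 2.56 for Mt1 (adjusted p = 0.0627), 1.05 for Pdk4 (adjusted p = 0.184) and -1.47 for Alas2 (adjusted p = 0.0969). The median of the immediate early list was 1.84 and that of the AP-1 list 1.07 there. Medians of 6 of the 49 lists turned sign in that fit: glucocorticoid response from 0.19 to -0.45, clock from 0.30 to -0.12, hypoxia and glycolysis from 0.09 to -0.18, ER stress from 0.02 to -0.15, matrix proteases from -0.12 to 0.14 and coagulation from -0.07 to 0.02.

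The same genes were also measured in Nrf2-/- lungs. In the fit over all 12 arrays the difference between the genotypes in the ventilation effect passed for 0 of 9347 genes (0%; limma, with 451 at an unadjusted p under 0.05). Of the 17 risen genes, 12 had a knockout difference above 0, Mt1 with 0.03 among them, and both fallen genes had one below 0; none of the 19 passed in the knockout by limma (lowest adjusted p = 0.202). Without knockout SpV array 1 the knockout difference was above 0 for 9 of the 17, Mt2 with 0.01 among them. The test of the difference between genotypes then called 82 of 9199 genes (0.891%), 11 of the 19 among them. The 19 were chosen for their effect on the same wild-type arrays, which favours such a difference, so nothing is read from that count. Actin ratios were 1.39 and 1.52 on knockout SpV arrays 2 and 3 and 3.10, 2.21 and 3.02 on the knockout HVT arrays, the opposite order to the wild type, and their part in it was not tested. Fos had 1689, 5152, 2122, 1250.2, 1652 and 2601 on the knockout arrays in the order SpV 1 to 3, then HVT 1 to 3, so that spontaneously breathing knockout lungs were above the wild-type controls, which lay at 781 to 982 when all 12 arrays were normalized together. Mt1 had 3659, 5729, 6775, 5217, 5249 and 5551, with wild-type controls at 1046 to 1598. Ttpa, by contrast, differed by 1.85 in the knockout and 1.67 in the wild type, and Eppk1 by 0.81 and 1.61, in the 12-array fit.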

How the data were processed

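Total RNA was measured on 12 Affymetrix Murine Genome 430A arrays, of which the 6 wild-type arrays carry the comparison. The authors deposited 1 linear signal intensity per probe set and array, made with GCOS 1.4 per the submitters' processing notes. Per the labels, arrays were brought to an average intensity of 500, but the deposited intensities do not show it. Each array was therefore scaled to a mean, trimmed by 2% at each end, of 500, and the arrays were quantile normalized. Probe sets at a scaled signal of 100 on at least 3 arrays were kept, 1 per gene (the brightest on average), and log2(signal + 16) was fitted with limma 3.58.1 in R 4.3.3 (lmFit, eBayes with an intensity trend). The fit had 4 residual and 5.61 prior degrees of freedom. P-values are two-sided and adjusted over all genes by Benjamini and Hochberg, with a threshold of 0.05. With 3 arrays against 3 no exact permutation can pass that threshold; precision is limited by how few arrays there are.

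Gene symbols came from the platform annotation, where 20393 probe sets name 1 gene, 691 several and 1555 none. Of the first, 20364 had an identifier in RefSeq's GRCm38.p6 table, and 0 symbols changed. Probe sets ending in s_at or x_at can bind related transcripts. The 64 control probe sets were left out.

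The members, the 49 lists of genes and the naming rule were chosen with earlier results of these data known, so counts on lists are descriptions. The rule took the 20 largest rises and 12 largest falls among called genes, falls called in the fit over 11 arrays, and up to 4 called members of each list, or otherwise the 2 with the smallest p. Other list members named in the text were chosen after their values were seen. The code was checked on simulated data.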

Additional observations from a re-analysis of the deposited data

Results flagged for a closer look

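The response of 11 of the 19 called genes differed between the genotypes by the limma test of that difference over 11 arrays, without knockout SpV array 1; over all 12 arrays the same test called 0 genes. The 11-array test called 82 of 9199 genes (0.891%), and the 19 were chosen for their effect on the same wild-type arrays, which favours a difference, so the count and these values are descriptions. The differences, wild-type effect minus knockout effect on the log2 scale, are given with their adjusted p over all genes. Socs3 had 3.40 (adjusted p = 0.0306) and Fos 3.31 (adjusted p = 0.0147). Spry4, which passed the filter in wild type through the ventilated arrays alone and so had to differ there on the scaled signals, had 2.75. Mt1 had 2.43 (adjusted p = 0.0132) and Mt2 2.08 (adjusted p = 0.0147). For Noct the value was 2.07 (adjusted p = 0.0446), for Maff 2.01 (adjusted p = 0.0226) and for Plaur 1.65 (adjusted p = 0.0306). Dusp1 had 1.57 (adjusted p = 0.0153), Ctse 1.50 (adjusted p = 0.038) and Bmx 1.21 (adjusted p = 0.0345). The other Ctse probe set had a wild-type difference of -0.15 with overlapping groups. In that fit the knockout effect was below 0 for Socs3 (-1.25), Fos (-0.90), Dusp1 (-0.51), Plaur (-0.37), Mt1 (-0.21), Ctse (-0.21), Spry4 (-0.19) and Bmx (-0.15), near 0 for Mt2 (0.01), and above 0 for Noct (0.55) and Maff (0.45). Leaving out knockout SpV array 1 leaves the knockout controls with 2 arrays. On these 11 arrays the actin ratio was lower after ventilation in the wild type and higher in the knockout. Its part in these differences was not tested.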

How the results depend on the processing

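The 19 calls numbered 14 to 20 with scaling to a trimmed mean alone, no filter, a filter at 200, a pseudocount of 1 or 64, a robust prior, or the mean of all probe sets. They became 40 with equal medians, 68 on unscaled values, 12 without an intensity trend, 7 over all 12 arrays and 45 over 11 arrays. With the actin ratio as covariate they numbered 11. They numbered 8 with only probe sets that no name ending marks as binding several transcripts (unique probe sets). Noct, Ttpa, Alas2, Plaur, Rcan1 and Pmvk had no such probe set in that fit and could not be called. Leaving out 1 wild-type array gave 6 to 130 calls. With the replicate number as a block 84 genes were called, all 19 among them. Deviations of same-numbered arrays correlated at 0.30, 0.28 and -0.02, and those of differently numbered arrays at -0.37 to 0.07. SpV array 3 correlated best with HVT array 2, at 0.04. Whether the numbers pair the arrays is not settled by these values, and the main fit has no block. For the difference between genotypes the count was 0 with scaling alone, with the replicate block and without any 1 array but knockout SpV array 1, where it was 82. Of 389 values of called genes under alternatives, 284 kept the call and 5 reversed: Ctse had -0.15 with unique probe sets and -0.17, -0.20 and -0.06 without HVT arrays 1, 2 and 3 (up to 1.47 without SpV array 1), and Hbb-b2 had 0.44 with unique probe sets. These use another probe set of the gene. Of 1029 list medians, 926 moved by less than 1 SD of the arrays within groups, but leaving out 1 array turned the sign of 11 of the 49 medians and moved 38, these included, by over 1.5 times. Signals under 100 are not tested, which limits cytokines most.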

Other observations

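Genes on none of the lists also passed in the 11-array fit, with values here from the 6 arrays and groups apart on the probe set used. Genes of hyaluronan and lipid signals were among them: Has1, a hyaluronan synthase, had signals of 176, 191 and 208 on SpV arrays and 751, 366 and 569 on HVT arrays, a difference of 1.42 ± 0.24. Sphk1, which makes sphingosine-1-phosphate, had 710, 778 and 523 against 2232, 1499 and 1269, a difference of 1.27 ± 0.23; its other probe set had 1.02 with overlapping groups. Tnfrsf12a, the receptor of the cytokine TWEAK, had 158.5, 216 and 240.2 against 839, 416 and 841, a difference of 1.64 ± 0.28. Trib1, a pseudokinase that targets C/EBP factors for degradation, had 2.39 ± 0.48, with controls from 35.1 to 194.5. Rnd3, a small GTPase that opposes RhoA, had 1.26 ± 0.25 and Epha2, an ephrin receptor of epithelium, 0.89 ± 0.19. The phosphate transporter Slc20a1 had 0.85 ± 0.17, and Glipr1 1.44 ± 0.28. Each passed only in a fit in which the knockout arrays add degrees of freedom, and none of them was called over the 6 wild-type arrays alone.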
